A study of Mus musculus with 4 samples.

Results

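miR-204 and miR-211 are related microRNAs whose 5p arms carry the same seed, the stretch of bases 2 to 8 that pairs with target transcripts. The mouse miRNA array held 4 arms of these miRNAs among 1023 mouse miRNAs, taken by name (mmu-miR-204-5p, mmu-miR-204-3p, mmu-miR-211-5p and mmu-miR-211-3p, written here without the species prefix), with 10 of the 2645 mouse probes. They were followed in 4 mouse cell lines, with 1 array for each line. NSCL61 are glioma-initiating cells, cells able to start a glioma, derived from neural stem cells, and NSC are neural stem cells. OPCL61 are glioma-initiating cells derived from oligodendrocyte precursor cells, and OPC are oligodendrocyte precursor cells, which normally give rise to myelinating oligodendrocytes. The labels do not say whether NSCL61 and OPCL61 came from the same cultures as the NSC and OPC samples. They give no strain, allele, passage or number of cultures for any line, and 100 ng of total RNA was labelled for each array. A line is therefore represented by 1 RNA sample, errors below are SDs or standard errors over replicate spots of 1 array, and no test between lines was possible.

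A miRNA hairpin is cut into a duplex whose 5p and 3p arms can each be loaded into an Argonaute protein, and usually 1 arm of the duplex is kept. miR-204-5p and miR-211-5p are the arms usually kept. miR-204 is made from an intron of Trpm3 and is abundant in choroid plexus, retinal pigment epithelium and lens. miR-211 is made from an intron of Trpm1, whose promoter is driven by MITF in melanocytes. In RefSeq (GRCm38.p6), the Mir204 hairpin lies on the plus strand at chr19:22750605-22750672, within the bounds of Trpm3 (chr19:22137797-22995410), and the Mir211 hairpin on the plus strand at chr7:64205806-64205911, within the bounds of Trpm1 (chr7:64153835-64269772).

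The hairpins from RefSeq are shown because the arms of 1 precursor gave different readouts, and capitals mark the 5p arm and then the 3p arm.
Mir204 hairpin: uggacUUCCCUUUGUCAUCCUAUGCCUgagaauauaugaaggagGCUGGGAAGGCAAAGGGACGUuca
Mir211 hairpin: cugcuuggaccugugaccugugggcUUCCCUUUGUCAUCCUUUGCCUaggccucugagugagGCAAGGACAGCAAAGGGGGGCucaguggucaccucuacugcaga
The mature arms from the same table follow, with the seed in capitals.
mmu-miR-204-5p: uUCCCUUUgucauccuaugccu
mmu-miR-211-5p: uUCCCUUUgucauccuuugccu
mmu-miR-204-3p: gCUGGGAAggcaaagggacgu
mmu-miR-211-3p: gCAAGGACagcaaaggggggc
The 5p arms were identical at 21 of 22 positions and differed by A17U, given as the miR-204-5p base, the position from the 5′ end and the miR-211-5p base. The 3p arms were identical at 14 of 21 positions and had different seeds. Of the 1679 mature mouse miRNAs in the table, 3 carried the seed of the 5p arms, the third being miR-7670-3p, and miR-211-3p shared its seed with no other entry.

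The array probes are shown because they set what each value can report. They are DNA complementary to the 3′ part of the miRNA. In the 5p probes the capital is the base that differs between miR-204-5p and miR-211-5p, and in the 3p probes capitals mark the longest run of C.
miR-204-5p, 20-base probe: aggcaTaggatgacaaaggg
miR-211-5p, 20-base probe: aggcaAaggatgacaaaggg
miR-204-3p, 14-base probe: acgtCCCtttgcct
miR-211-3p, 13-base probe: gCCCCCCtttgct
miR-211-3p, 12-base probe: gCCCCCCtttgc
The 20-base probes of the 5p arms differed at T6A alone, counted from the probe's 5′ end with the miR-204-5p base first. The miR-211-3p probes covered bases 9 to 21 and 10 to 21 of the mature arm, so neither covered any base of its seed. Per the file headers these probes map, on mm9, to chr7:71350762-71350774 and chr7:71350763-71350774.

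The 4 lines differed in overall signal, and levels were scaled between arrays by log2 shifts from -1.30 (OPC) to 1.44 (NSCL61). A miRNA was counted as well above background where at least 50% of the spots of any of its probes carried that flag of the scanner software, which held for 228 mouse miRNAs in NSCL61, 170 in NSC, 206 in OPCL61 and 139 in OPC. No mouse spot was saturated. As a check of the labels, neural stem and progenitor markers (miR-9-5p, miR-9-3p, miR-124-3p and miR-125b-5p) were well above background for 3 of 4 in NSCL61, 4 of 4 in NSC, 1 of 4 in OPCL61 and 3 of 4 in OPC, so they separated the lines little. Among them miR-124-3p, which is also a neuronal marker, was well above background in NSC alone. Of 4 oligodendrocyte-lineage markers, 2 were so in NSCL61, 3 in NSC, 0 in OPCL61 and 1 in OPC, where it was miR-338-3p. miR-219-5p was so in NSC alone. Their summed scaled signal was 35.5 units in NSCL61, 189.8 in NSC, 0 in OPCL61 and 51.4 in OPC. These markers thus did not set OPC apart from the other lines. Whether they mark precursors that have not yet differentiated was not tested, so they do not bear on the OPC label. Of 7 neuronal markers, which include miR-124-3p, 4 were well above background in NSCL61, 6 in NSC, 1 in OPCL61 and 1 in OPC. Of 5 markers of fibroblasts, pericytes and smooth muscle, 3 were so in NSCL61 (summed scaled signal 232.6 units), 0 in NSC, 1 in OPCL61 (26.5) and 1 in OPC (47.6), and of 2 endothelial markers miR-126-3p was so in NSCL61 alone. No marker of blood cells, microglia or striated muscle was well above background on any array. The lowest scaled log2 level well above background was 2.73 in NSCL61, 4.68 in NSC, 3.83 in OPCL61 and 5.39 in OPC. The marker counts and summed signals thus compare arrays with unlike limits, and a weak marker seen in NSCL61 alone may lie under the limits of the others. The part of other cell types in the results was not tested.

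miR-204-5p (mmu-miR-204-5p) was measured in oligodendrocyte precursors alone. Its 20-base probe gave 3.61 ± 2.75 intensity units in NSCL61 (SD over 20 spots), 5.94 ± 2.32 in NSC (20 spots), 2.73 ± 2.50 in OPCL61 (17 spots) and 80.1 ± 4.64 in OPC (19 spots). All 19 OPC spots were well above background and ranged between 73.7 and 91.6 units, whereas 0 spots were so on the other arrays, where the highest spot of this probe reached 10.3 units. The OPC spots thus did not overlap those of any other line, but they show the spread within 1 array only. Whether spots of other probes bright on 1 array separate likewise was not counted. The 19-base probe of miR-204-5p, which lacks the last base of the longer probe, showed the same split at a lower signal, with 20.6 ± 3.62 units over 19 spots in OPC and means between 1.38 and 2.33 units elsewhere. Between 16.8% and 69.9% of negative control spots were as bright as or brighter than the mean of a miR-204-5p probe in NSCL61, NSC and OPCL61, against 0% in OPC. Of 135 probes for viral miRNAs on the OPC array, 1 was as bright as or brighter than the 20-base probe and 4 than the 19-base probe.

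Set against OPC, the cell type it was derived from, OPCL61 had at least 13.9-fold less miR-204-5p (log2 change -3.79). This is a bound because the probe was not well above background in OPCL61. The bound divides the OPC level by the lowest level of a probe well above background on the other array. By the same rule, at least 2-fold and above background in 1 line or more, 20.6% of the 214 miRNAs measured in this comparison were lower. OPC had at least 7.70-fold more miR-204-5p than NSC (log2 change 2.95), where 14% of 200 measured miRNAs were higher. These comparisons share the OPC array and are not separate evidence. Without scaling the bounds were 4.33-fold and 4.47-fold. NSCL61 was not compared with NSC, nor OPCL61 with NSCL61, because miR-204-5p was below background on both arrays of each pair. In bulk RNA, fewer cells with a miRNA and less of it per cell cannot be told apart.

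**Figure D1:**
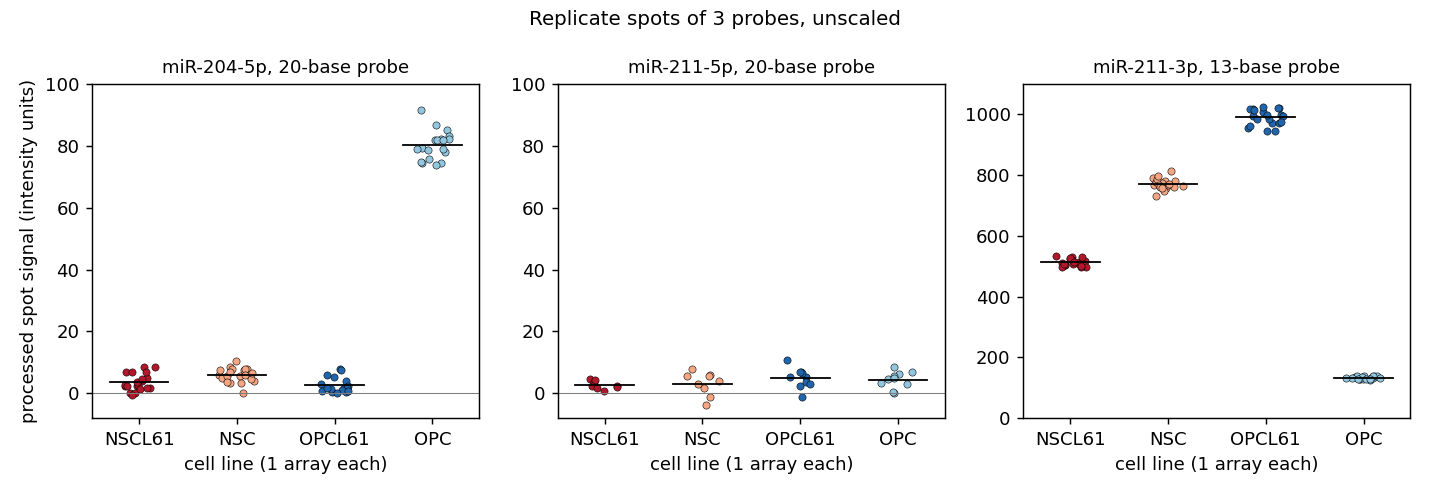
Processed signal of each replicate spot, in unscaled intensity units, for 1 probe of miR-204-5p, miR-211-5p and miR-211-3p on the arrays of NSCL61, NSC, OPCL61 and OPC; black bars are means over spots. miR-204-5p spots stand apart in OPC at a mean of 80.1 units, miR-211-5p spots stay near 0 on all arrays, and miR-211-3p spots form separate bands on each array (the right panel has its own axis).

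Of all 1023 mouse miRNAs, 2 were well above background in OPC and on no other array, miR-204-5p and miR-598-3p. miR-598-3p lay near the background at 15.4 ± 3.98 units over 20 spots. A further 34 miRNAs were detected in NSCL61 alone, 13 in NSC alone and 16 in OPCL61 alone.

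miR-211-5p, which shares the seed of miR-204-5p, was not well above background in any line. Its 4 probes, of 19 to 22 bases, gave 16 means between 1.27 and 6.76 units, and 0 of 153 spots were well above background. The 20-base probe averaged 2.74 ± 1.33 units in NSCL61 (8 spots), 3.20 ± 3.70 in NSC (9 spots), 5.01 ± 3.23 in OPCL61 (10 spots) and 4.39 ± 2.70 in OPC (10 spots), and the spots of all arrays overlapped. On the OPC array, where the miR-204-5p probe of the same length was bright, this probe with its different base at T6A was not. miR-204-3p, the other arm of the Mir204 hairpin, gave means between -1.72 and 0.32 units from its 2 probes, with 0 of 145 spots well above background. It was therefore below background also in OPC, where miR-204-5p was measured.

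miR-211-3p (mmu-miR-211-3p) was the family member measured in all lines: it was well above background in every line, with all spots of both probes carrying the flag. The 13-base probe gave 513 ± 12.0 units in NSCL61 (19 spots), 770 ± 18.3 in NSC (19 spots), 989 ± 25.5 in OPCL61 (20 spots) and 133 ± 4.26 in OPC (19 spots). The unscaled spot ranges were 496 to 534, 731 to 813, 944 to 1024 and 127 to 139 units in the same order of lines. They did not overlap, but they show the spread within an array alone. How often the spots of other probes separated in this way was not counted. Before scaling the lines ran OPC, NSCL61, NSC, OPCL61 from low to high, and after scaling NSCL61 (7.56 on the log2 scale), OPC (8.36), OPCL61 (9.57), NSC (10.11). OPC lay below NSC and OPCL61 on both scales, and NSCL61 below NSC and OPCL61, whereas the order of NSCL61 and OPC and that of OPCL61 and NSC turned with the scaling.

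In the neural stem cell lineage, NSCL61 had 5.83-fold less miR-211-3p than NSC (log2 change -2.54, spot SE 0.01), where 38.8% of 245 measured miRNAs were lower by the rule and the median change of the 153 measured on both arrays was -1.03. Without scaling the change was -0.59, and with scaling on the 75th percentile of all probes -0.62, both short of 2-fold. In the oligodendrocyte precursor lineage the direction was the opposite: OPCL61 had 2.32-fold more than OPC (1.21, spot SE 0.01), where 14.5% of 214 miRNAs were higher and the median of 131 was -0.33. Without scaling this rise was 7.43-fold. The balance of calls over all miRNAs turned with the scaling. It was 29 higher and 95 lower in NSCL61 and 31 higher and 44 lower in OPCL61 as reported, and 120 and 17 in NSCL61 and 119 and 4 in OPCL61 without scaling.

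Between the lineages, OPC had 3.36-fold less miR-211-3p than NSC (log2 change -1.75, spot SE 0.01), where 11.5% of 200 measured miRNAs were lower, and 5.79-fold less without scaling. Only 6 of the 109 miRNAs measured on both arrays, miR-211-3p included, had a change this low or lower. OPCL61 had 4.02-fold more than NSCL61 (2.01, spot SE 0.01), where 34.8% of 256 miRNAs were higher. That difference was 1.93-fold without scaling. Over all miRNAs 28 were higher and 23 lower in OPC than in NSC, and 12 and 64 without scaling. In OPCL61 against NSCL61 the counts were 89 and 31, and 40 and 101 without scaling. The 4 comparisons reuse the same 4 arrays. The 12-base probe of miR-211-3p gave log2 changes of -2.55, 1.16, -1.81 and 1.90 for NSCL61 against NSC, OPCL61 against OPC, OPC against NSC and OPCL61 against NSCL61, at most 0.11 from those of the 13-base probe.

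**Figure D2:**
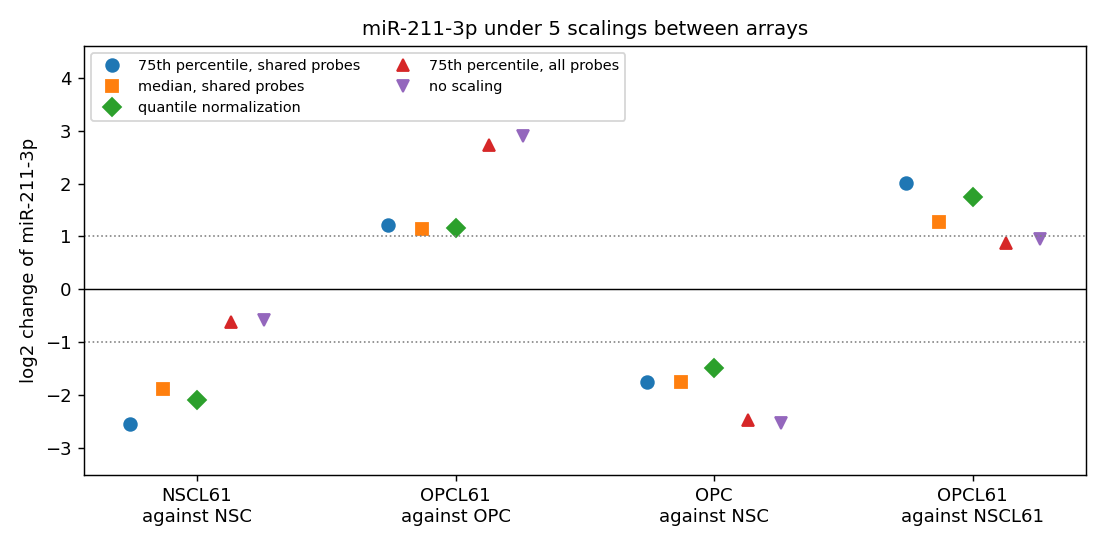
log2 change of miR-211-3p in 4 comparisons (the first line named is set against the second), each symbol standing for 1 of 5 scalings between arrays; dotted lines mark 2-fold. The sign was the same under the 5 scalings in every comparison, while NSCL61 against NSC and OPCL61 against NSCL61 fell short of 2-fold without scaling and with scaling over all probes.

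At 2-fold or more in both lineages, the opposite directions were shared by few miRNAs. Others had the same signs with a smaller change in OPCL61, such as miR-3077-5p (-1.96 in NSCL61 and 0.93 in OPCL61). How many had these signs at any size was not counted. Of the 188 measured in both lineages, 9 (4.79%) were lower in NSCL61 than in NSC and higher in OPCL61 than in OPC by the rule, namely miR-211-3p, miR-149-3p, miR-188-5p, miR-714, miR-1224-5p, miR-1895, miR-1940, miR-2137 and miR-2861. By the rule only miR-23b-3p went the other way, higher in NSCL61 and lower in OPCL61. Among the 105 miRNAs well above background on all arrays, miR-211-3p had the 6th largest gap between its lineage changes, 3.76 on the log2 scale. miR-2137 led with 5.28, its changes being -3.20 in NSCL61 and 2.07 in OPCL61. Without scaling 5 miRNAs showed the pattern of 9, of which 3 were among the 9 and miR-211-3p was not, while miR-149-3p and miR-2861 turned to 0.09 and 0.84 in NSCL61 against NSC.

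The probes of miR-211-3p had an unusual sequence for this array. They were the only 2 of the 2645 mouse probes with a run of 6 C. Of the 1679 mature miRNAs in RefSeq 4 held the complementary GGGGGG (read on the miRNA strand only), or 0.238%, and miR-211-3p was the 1 of these with a probe of that name on the array. The 12-base and 13-base probes were 75% and 69.2% G and C. Of probes of the same lengths, 8 of 128 probes of 12 bases (6.25%) and 18 of 229 of 13 bases (7.86%) were well above background on all arrays, against 182 of 2645 (6.88%) overall. Of the 30 probes with a run of 5 C, 5 were so (16.7%), and of the 90 with a run of 4 C, 11 (12.2%).

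The C content of the probe, which mirrors the G content of its target, moved with the pattern across miRNAs. C made up 53.8% of the 13-base miR-211-3p probe, against a median of 30.8% over the probes of the 105 miRNAs well above background on all arrays. Of the 31 of these miRNAs with at least 40% C, 24 were lower in NSCL61 than in NSC, 12 higher in OPCL61 than in OPC, and 9 both, with median log2 changes of -2.09 in NSCL61 and 0.62 in OPCL61. Of the 52 with under 30% C, 15 were lower in NSCL61, 8 higher in OPCL61 and 0 both, with medians of -0.22 and -0.13. The remaining 22, with 30% to 40% C, had 7, 0 and 0 and medians of -0.58 and -0.71. Removing the scaling would add the same shift, 1.95 in NSCL61 and 1.68 in OPCL61, to every miRNA, and so leave the gaps between these medians as they are, while the counts move with it. All 9 miRNAs of the opposite pattern thus had probes with at least 40% C, as had 4 of the 5 that showed it without scaling. The limits of 30% and 40% were set after these values were seen, and the part of probe composition in the miR-211-3p result was not tested.

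**Figure D3:**
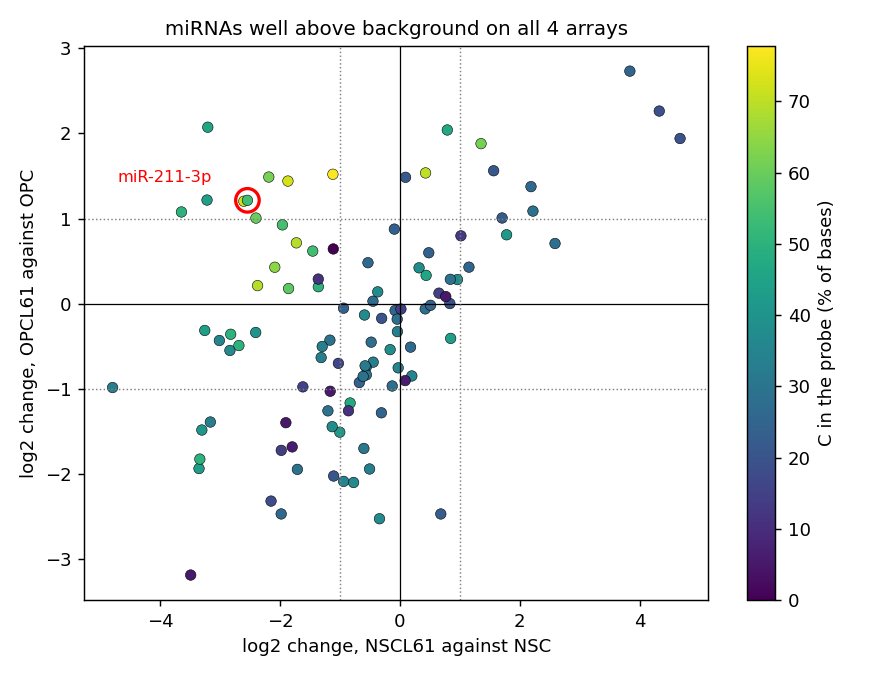
log2 change in NSCL61 against NSC (horizontal) and in OPCL61 against OPC (vertical) of the 105 miRNAs well above background on all 4 arrays, each point 1 miRNA coloured by the percentage of C in its brightest probe; dotted lines mark 2-fold. miR-211-3p (red ring) lies at -2.54 and 1.21, in the upper left with other miRNAs whose probes hold at least 40% C.

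Across the 381 precursors with both arms on the array, the 3p arm was detected on every array and the 5p arm on none for 19, Mir211 among them. These included precursors whose 3p arm is the abundant arm by textbook knowledge, such as miR-29a, miR-23a and miR-210. The reverse, a 5p arm on all arrays and a 3p arm on none, was seen for 35, and neither arm was detected on any array for 220. For Mir211 the signal thus came from probes named for the arm that is not usually kept, which cover its 3′ end alone. Whether these probes report the arm itself was not tested.

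The miRNAs most like each measured arm were taken as the 6 with the smallest root mean square difference of centred log2 levels over the 4 arrays. For miR-211-3p these were miR-1895 (0.15), miR-1224-5p (0.16), miR-188-5p (0.17), miR-149-3p (0.29), miR-135a-1-3p (0.31) and miR-2137 (0.39). Of the 6, 5 were well above background on the same arrays and the same 5 were among the 9 with opposite changes. Likeness and lineage changes come from the same 4 levels, so similar changes follow from the choice and are not separate evidence. The probes of the 6 held 46.2% to 72.7% C, with a median of 60.8%. miR-1224-5p, which comes from a short spliced intron (a mirtron), fell by 2.60 on the log2 scale in NSCL61 and was 1.20 higher in OPCL61, close to the -2.54 and 1.21 of miR-211-3p (-0.65 and 2.88 without scaling, against -0.59 and 2.89 for miR-211-3p).

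No miRNA had a profile as close to miR-204-5p, which was at the floor of detection on 3 arrays, so that part of any likeness is the floor itself. The nearest were miR-1839-3p (0.60), miR-346-3p (0.76), miR-34a-5p (0.90), miR-432 (0.92), miR-702 (0.92) and miR-503-5p (0.92). None of the 6 was detected in OPC alone. miR-1839-3p was well above background in all lines, with a log2 change of -3.49 in NSCL61 against NSC and -3.19 in OPCL61 against OPC (-1.53 and -1.51 without scaling). miR-34a-5p, a target of p53, was detected in OPCL61 and OPC alone, with a change of -1.27 in OPCL61 against OPC that turned to 0.41 without scaling. The probes of these 6 held 5.26% to 43.8% C.

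**Figure D4:**
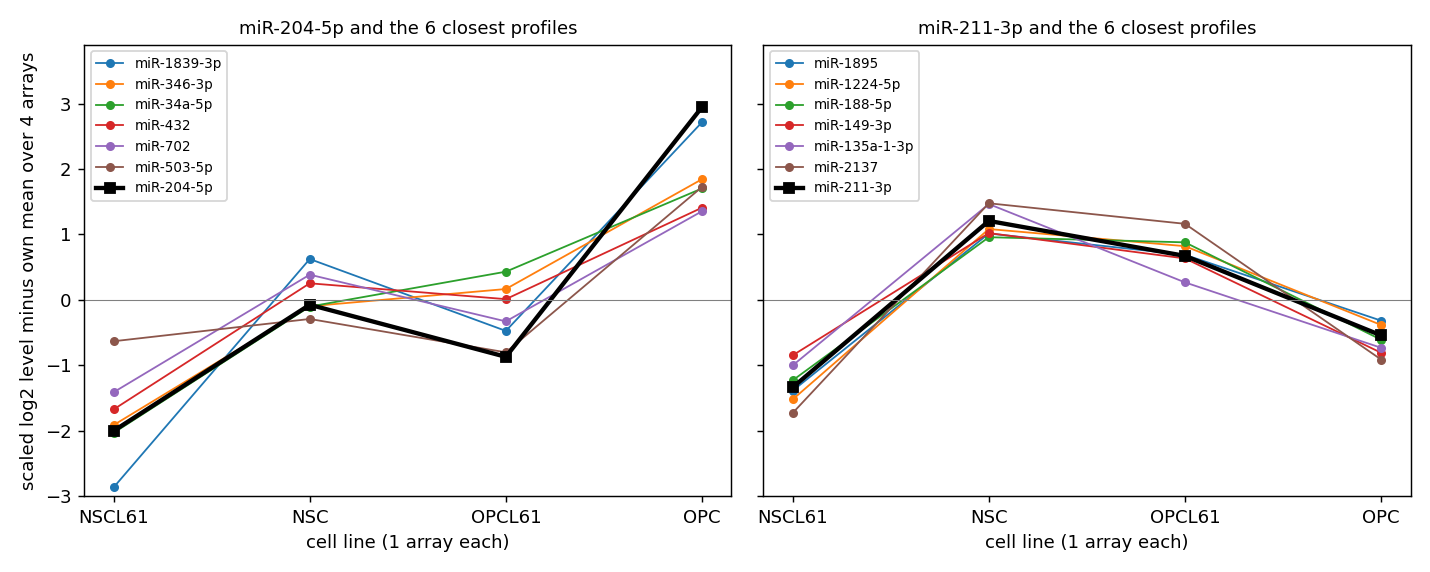
Scaled log2 level minus its mean over the 4 arrays, for miR-204-5p (left, black) and miR-211-3p (right, black) with the 6 miRNAs of closest profile in colours, on the arrays of NSCL61, NSC, OPCL61 and OPC. miR-211-3p and its neighbours lie close together, at 0.15 to 0.39 root mean square difference, and those of miR-204-5p lie farther off, at 0.60 to 0.92.

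Of all mouse miRNAs 271 (26.5%) were well above background on at least 1 array, the share against which the next counts stand, each of which includes miR-204-5p and miR-211-3p. Of 13 arms of miRNAs known from pigment epithelium, choroid plexus and ciliated epithelium, 5 were well above background on any array: miR-204-5p, miR-211-3p, miR-34b-5p, miR-34c-5p and miR-449a-5p. miR-34b-5p and miR-34c-5p, which are p53-responsive and abundant in ciliated cells, were 3.20-fold and 2.51-fold lower in NSCL61 than in NSC, changes that turned to 0.28 and 0.63 on the log2 scale without scaling, and both were below background in OPC. miR-449a-5p was well above background in NSCL61 alone. None of the 10 listed markers of pigment and choroid plexus epithelium was well above background in OPC, the line with miR-204-5p, and miR-211-5p, miR-184-3p and the miR-200 family were so in no line. The summed scaled signal of the markers above background was 30.0 units in NSCL61, 57.6 in NSC, 50.3 in OPCL61 and 0 in OPC. The lowest scaled log2 level well above background was 5.39 in OPC. miR-34b-5p, miR-34c-5p and miR-449a-5p lay at 4.91 or lower where they were detected. By this scaling such levels would have gone undetected in OPC, so its sum of 0 cannot tell whether they were absent.

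In that list 0 of 4 measured arms were higher and 3 lower in NSCL61 than in NSC, where 11.8% of all measured miRNAs were higher and 38.8% lower. The median log2 change of the 3 with a fold was -1.68, against -0.90 over the 196 miRNAs with one. In OPCL61 against OPC 1 of 4 was higher and 1 lower, miR-211-3p and miR-204-5p themselves, against 14.5% and 20.6% of all, and the others had no fold. Without scaling 0 of the 4 passed in NSCL61, and in OPCL61 2 were higher and 1 lower, miR-34c-5p being the addition. Of 13 arms of neural crest and melanocyte-associated miRNAs, 3 were measured on any array, miR-204-5p, miR-211-3p and miR-218-5p. miR-218-5p was detected in NSCL61 and OPCL61 and in neither NSC nor OPC, at least 1.67-fold higher in NSCL61 than in NSC. In NSCL61 against NSC 0 of 2 arms on this list were higher and 1 lower, and in OPCL61 against OPC 1 of 3 was higher and 1 lower, again miR-211-3p and miR-204-5p, miR-218-5p having no fold there. Without scaling 1 was higher and 0 lower in NSCL61, and 2 were higher and 1 lower in OPCL61, miR-218-5p being higher in both. In OPC against NSC each of these lists had 1 arm higher, miR-204-5p, and 1 lower, miR-211-3p, where 14% and 11.5% of all measured miRNAs were higher and lower.

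Among 17 arms on a list drawn up for miRNAs in introns of channel, transporter or neural genes, 7 were measured. Only the hosts of miR-204 and miR-211 were looked up, so the list name was not checked for the other miRNAs. In NSCL61 against NSC 0 of 6 were higher and 5 lower, miR-211-3p among them, against 11.8% and 38.8% of all. The median log2 change was -2.30 over the 5 with a fold (-0.90 over all 196). In OPCL61 against OPC 1 of 6 was higher and 4 lower, against 14.5% and 20.6% of all, with a median of -1.86 over the 5 with a fold (-0.07 over all 162). The 4 lower in OPCL61 were miR-204-5p, miR-326-3p (at least 2.99-fold), miR-338-3p (at least 3.62-fold), which promotes oligodendrocyte differentiation, and miR-342-3p (4.99-fold, measured in both lines). The arm higher in OPCL61 was miR-211-3p. Without scaling 0 of 6 passed in NSCL61 (median -0.27 over 6), and in OPCL61 2 were higher and miR-204-5p alone was lower (median -0.18 over 5). In OPC against NSC 1 of 7 was higher, miR-204-5p, and 2 lower, miR-211-3p and miR-139-3p, against 14% and 11.5% of all. In OPCL61 against NSCL61 1 of 6 was higher, miR-211-3p itself, and 0 lower, against 34.8% and 12.1% of all. In these comparisons 1 and 3, and then 0 and 2, were higher and lower without scaling.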

How the data were processed

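Total RNA of 4 mouse cell lines was hybridised to 1-colour (Cy3) Agilent miRNA arrays, 1 per line. The submitters' processing notes name Agilent Feature Extraction 10.7.3.1. The headers of the deposited files describe the processed intensity as corrected for background and for spatial trends, with no step between arrays, and give flags of 0 or 1 for spot quality. They place the probes on mm9. The deposited value table held the same intensity values (largest difference 0).

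From these, spots with outlier flags were left out (1842 to 2365 of 40920 mouse spots per array), values were floored at the lowest spot well above background (16.3 to 18.2 units), log2 was taken and spots were averaged. Arrays were scaled on the 75th percentile of the 182 probes detected on every array, with shifts centred on their mean. A miRNA took the level of its brightest probe. Called were differences of at least 2-fold and over 2 spot standard errors, or bounds of at least 2-fold where 1 line was below background. A bound whose brighter level lay under the other array's lowest detected level gave no fold. Python 3.11.15 and pandas 2.3.3 were used, with limma 3.58.1 in R 4.3.3 for normexp. The call rule was tested on simulated data with a uniform shift between arrays and spot noise alone. That test cannot judge the choice of scaling or the variation between cultures. The labels name no repeated culture of a line. With 1 array each, no p-value is given, and the number of arrays limits the precision. Members, lists (3), marker lists (8) and the likeness rule were chosen with earlier results of these data known. Named miRNAs are the family's arms, the 6 closest profiles of each measured arm and the brightest list members. Others, such as the 9 of the opposite pattern, were named after their values were seen. Alternatives (11) covered scaling, background correction, outlier spots, probe summary, the detection rule and the value table.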

Additional observations from a re-analysis of the deposited data

Results flagged for a closer look

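The change of miR-211-3p had opposite signs in the lineages: the log2 change was -2.54 in NSCL61 against NSC and 1.21 in OPCL61 against OPC. With 1 array per line the difference between the lineages was not tested. The signs held under the 11 alternatives, while the size in NSCL61 ranged between -2.55 and -0.59 and that in OPCL61 between 1.11 and 2.89. Of these alternatives, the other detection rules and the value table left both values unchanged. Changes of at least 2-fold in these opposite directions were called for 9 of 31 miRNAs whose probes held at least 40% C and for 0 of 74 with less. The limit of 40% was set after these values were seen, so the split is a description, and the part of probe composition was not tested.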

How the results depend on the processing

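Every change reported for miR-204-5p and miR-211-3p kept its sign under the 11 alternatives, and the arms below background stayed so. For miR-204-5p the sign was fixed by the rule, which gives no fold to a bound of the wrong direction. For miR-211-3p the other detection rules and the value table left the values unchanged. The miR-204-5p bounds stayed past 2-fold, between 4.33-fold (no scaling) and 52.6-fold (the software's total signal per miRNA) in OPCL61 against OPC and between 2.60-fold (normexp) and 28.7-fold in OPC against NSC. For miR-211-3p, NSCL61 against NSC was no longer past 2-fold without scaling (-0.59) or with scaling over all probes (-0.62), nor was OPCL61 against NSCL61 (0.95 and 0.88). Counts over all miRNAs moved widely: in NSCL61 against NSC between 14 and 120 higher and 17 and 125 lower, in OPCL61 against OPC 13 to 119 and 4 to 67, in OPC against NSC 10 to 40 and 9 to 69, and in OPCL61 against NSCL61 32 to 111 and 15 to 104. The opposite pattern of 9 miRNAs numbered 3 to 25, and miR-211-3p left it under the 2 settings named above. The closest profiles shared 3 of 6 for miR-204-5p with the total signal and 3 of 6 for miR-211-3p with quantile normalization, and at least 4 under the other alternatives. The causes were not tested. No paired analysis was possible because each line has 1 array.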
